A study of Mus musculus with 2 samples.

Results

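Chromatin occupancy by the thyroid hormone receptor TRα1 was described around 10 genes of lipid uptake and binding in brown adipocytes. The genes were Lpl, Gpihbp1, Angptl4, Lmf1, Vldlr, Cd36, Slc27a1, Fabp3, Fabp4 and Fabp5. Each TR binding site (TRBS) is a peak of 1 deposited list, and it was assigned to a gene when its summit, the position of the highest pileup of fragments, lay within 100 kb of the transcription start site (TSS) in the GRCm38 annotation. Sites within 30 kb are given first. Of 5107 TRBS in the list, 10 lay within 30 kb of one of these TSS and 25 lay within 100 kb. They belonged to 6 and 7 of the 10 genes, respectively. A TRBS near a gene is a position in the genome, and no expression was measured in these data.

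The tissue was brown fat of adult male C57BL/6J mice of 8 to 12 weeks, which carried a GS-tagged TRα1 in brown adipocytes. Food with propylthiouracil (PTU), a blocker of thyroid hormone synthesis, was given for 2 weeks to make the animals hypothyroid, and thyroid hormone was then given during 24 h. Chromatin crosslinked with disuccinimidyl glutarate and formaldehyde gave 1 ChIP library and 1 input library, and genotype, diet and hormone were the same for both. The promoter or Cre line that restricted the tagged receptor to brown adipocytes, the number of animals and any pooling are not given in the sources used here, and hypothyroid tissue without hormone was not analysed here. Since the data hold peaks and no expression values, the labelled cell type could not be checked against marker genes. There was no replicate, so nothing below was tested and the intervals cover counting error only.

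Lipoprotein lipase, the product of Lpl, releases fatty acids from the triglycerides of circulating lipoproteins. The enzyme needs LMF1 to mature in the endoplasmic reticulum and GPIHBP1 to reach the lumen of capillaries, and ANGPTL4 inhibits it. VLDLR is a receptor for triglyceride-rich lipoproteins. The released fatty acids enter cells with the help of CD36 and of FATP1, the product of Slc27a1, which also activates them. FABP3, FABP4 and FABP5 bind fatty acids inside the cell, and FABP4 is abundant in adipocytes. Brown adipocytes take up these lipids as fuel for heat production. TRα1 binds DNA together with RXR, most typically on a DR4, which is a direct repeat of the half-site AGGTCA with a spacer of 4 bp.

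The sequences at the summits are printed for the site nearest to the TSS of each of the 6 genes with a TRBS within 30 kb, to show which of them hold a receptor half-site. Each of the following stretches has 121 bases centred on the summit, read from GRCm38.p6 on the plus strand. Capitals mark the DR4 half-sites at Lmf1 and the exact copies of AGGTCA, or of its complement TGACCT, at Fabp3, and the other 4 stretches hold neither. The Lmf1 stretch also holds an exact TGACCT near its left end, outside the DR4 and left in lower case, so with the AGGTCA of its DR4 it has 2 exact half-sites.
Lmf1, 811 bp downstream of the TSS, chr17:25579836-25579956: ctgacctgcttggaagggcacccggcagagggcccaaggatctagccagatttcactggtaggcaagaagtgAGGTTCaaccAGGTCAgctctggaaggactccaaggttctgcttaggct
Fabp3, 4195 bp downstream, chr4:130312730-130312850: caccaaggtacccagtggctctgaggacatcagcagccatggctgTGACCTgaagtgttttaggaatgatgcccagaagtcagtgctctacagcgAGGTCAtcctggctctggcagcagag
Lpl, 13934 bp upstream, chr8:68866497-68866617: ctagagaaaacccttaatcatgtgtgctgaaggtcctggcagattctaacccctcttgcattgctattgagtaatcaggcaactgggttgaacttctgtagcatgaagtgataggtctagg
Angptl4, 2040 bp downstream, chr17:33779730-33779850: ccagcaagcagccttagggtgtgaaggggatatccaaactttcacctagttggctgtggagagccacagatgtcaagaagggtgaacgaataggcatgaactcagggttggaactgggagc
Fabp4, 5274 bp upstream, chr3:10213790-10213910: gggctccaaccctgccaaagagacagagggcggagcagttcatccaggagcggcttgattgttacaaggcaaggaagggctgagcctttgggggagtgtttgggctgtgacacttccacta
Vldlr, 6908 bp downstream, chr19:27223332-27223452: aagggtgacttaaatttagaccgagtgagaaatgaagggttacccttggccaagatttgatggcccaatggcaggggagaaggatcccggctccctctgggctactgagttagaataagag

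Farther from the genes, DR4 elements were found in 5 TRBS around Lpl and 3 around Vldlr. They are printed because they make up 8 of the 9 elements in these 25 TRBS. The half-sites are in capitals, each element is read along its own strand, and the distance is that of the summit from the TSS.
Lpl, 51318 bp upstream, chr8:68829165-68829180, minus strand: AAGTCAactcAGGTCT
Lpl, 52385 bp upstream, chr8:68828101-68828116, minus strand: AGGGCAgggcAGGGCA
Lpl, 31850 bp upstream, chr8:68848589-68848604, plus strand: AGGTTActgcAGGGCA
Lpl, 37991 bp downstream, chr8:68918507-68918522, plus strand: AGTTCActttAGGTCA
Lpl, 73783 bp downstream, chr8:68954249-68954264, plus strand: AGGTTActtcAGGTCA
Vldlr, 40654 bp upstream, chr19:27175828-27175843, plus strand: AGGTCAtgggAGGTGG
Vldlr, 48324 bp upstream, chr19:27167964-27167979, minus strand: GGGTTAcacaAGGTCA
Vldlr, 92122 bp upstream, chr19:27124368-27124383, plus strand: GGGTCAcaggAGGTGA
The elements 37991 and 73783 bp downstream of Lpl have 1 mismatch to the DR4 consensus, and the others have 2. The element 52385 bp upstream of Lpl lies in a run of repeated bases, and 26.1% of that TRBS is annotated as repeat.

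**Figure D1:**
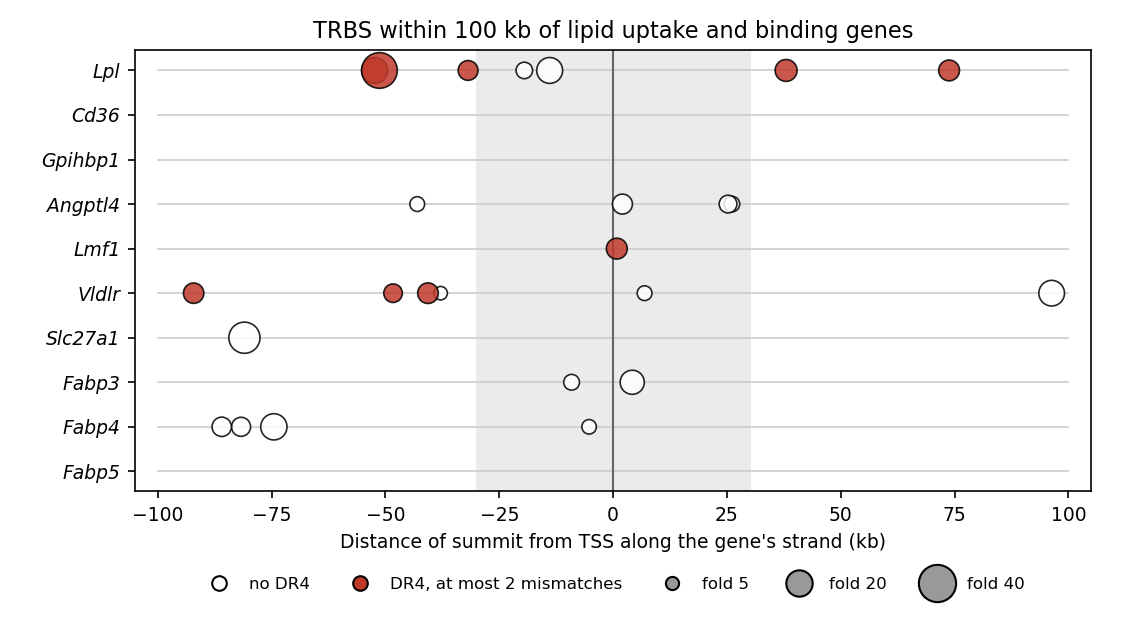
TRBS around each gene start, with the distance of the summit from the TSS in kb on the x axis (negative is upstream) and 1 row per gene. The area of a circle is proportional to the deposited fold, red circles hold a DR4 with at most 2 mismatches, and the shaded band is the 30 kb limit; within it only the Lmf1 site is red, and the rows of Cd36, Gpihbp1 and Fabp5 are empty.

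TRBS were found within 30 kb of Lpl, Angptl4, Lmf1, Vldlr, Fabp3 and Fabp4, which are 6 of the 10 genes. Over all 21938 protein-coding genes, 16.7% had at least 1 TRBS at this distance. Angptl4 had 3 sites, Lpl and Fabp3 had 2 each, and Lmf1, Vldlr and Fabp4 had 1 each. More than 1 site within 30 kb was thus present at 3 of the 10 genes, against 4.55% of protein-coding genes. This count was 1 with a score of at least 100, and also 1 with a limit of 10 kb. The 4.55% is for all TRBS within 30 kb and is not the share at these other settings. At them, at least 1 site was present at 11.3% and 8.09% of protein-coding genes, respectively. Within 100 kb the number of genes with a site was 7, with Slc27a1 added, and 38.3% of protein-coding genes had one. Lpl had 7 sites and Vldlr had 6 within 100 kb, and more than 4 sites within this distance were counted at 2.72% of protein-coding genes. With a score of at least 60, Lpl kept 7 and Vldlr kept 4, which is no longer more than 4. The shares are over all protein-coding genes and were not compared in a test.

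Strength is given as whole ChIP fragments at the summit, worked out from the deposited fold and p-value, with an exact 95% Poisson interval. The input background is given in fragments on the scale of the ChIP library, and the fold is the deposited ratio of ChIP to background after 1 was added to each. At the 10 sites within 30 kb, fragments ranged from 8 to 31 with a median of 18, and the fold ranged from 6.07 to 19.3 with a median of 8.46. At the 15 sites between 30 and 100 kb, fragments ranged from 7 to 58 with a median of 21, and the median fold was 12.2. Over all TRBS the medians were 17 fragments and a fold of 9.83. A fold above the median of the list was found at 4 of the 10 near sites and at 13 of the 15 farther away.

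**Figure D2:**
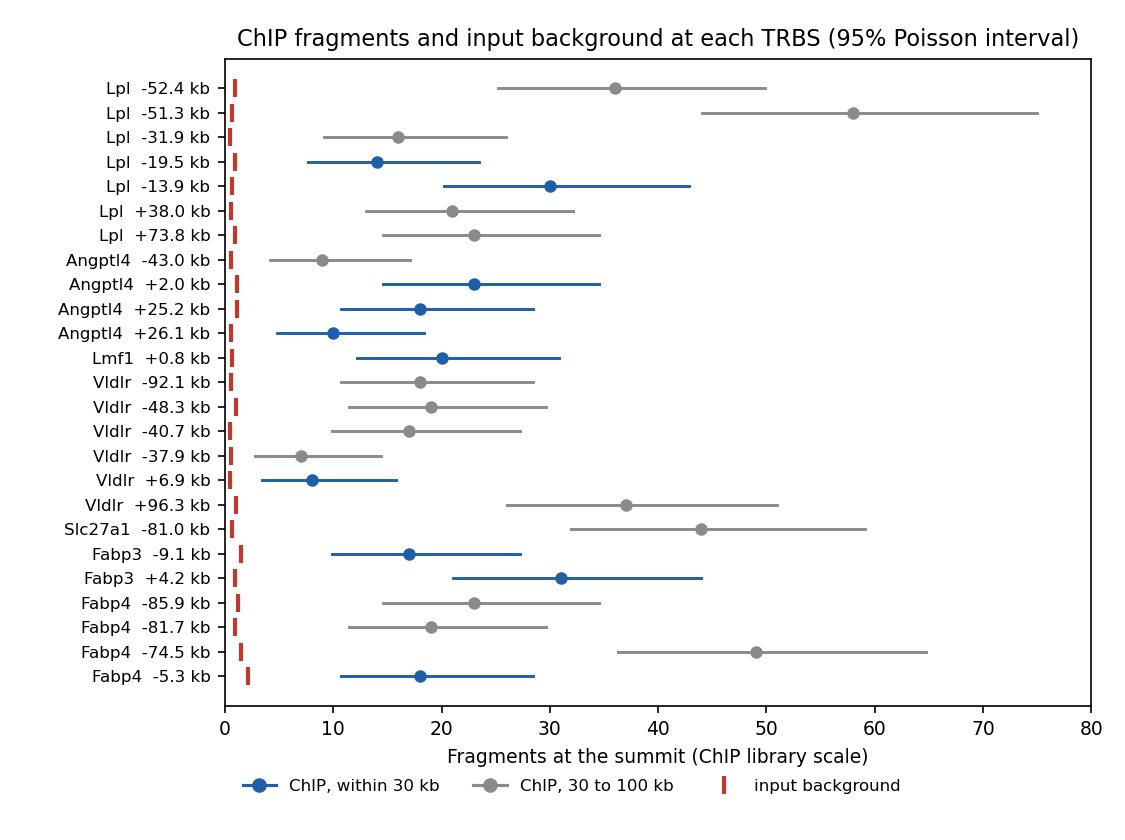
ChIP fragments at the summit of each of the 25 TRBS (points, with lines for the 95% Poisson interval) and the input background there (red ticks), by gene and distance from the TSS. Blue is within 30 kb and grey is 30 to 100 kb. The lower ends of the intervals run from 2.81 fragments at the weakest Vldlr site to 44.0 at the strongest Lpl site. Each lies above the background at its site, which follows from the peak call, since it selected these sites for ChIP over that background.

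Lpl (ENSMUSG00000015568, chr8:68880491-68907448, plus strand), the lipase itself, had no site in its promoter or its body. The nearest TRBS was intergenic, 13934 bp upstream (chr8:68866409-68866797), with 30 fragments (20.2 to 42.8) over a background of 0.609, a fold of 19.3 and a score of 366. The second was intergenic as well, 19501 bp upstream (chr8:68860773-68861081), with 14 fragments (7.65 to 23.5), a background of 0.913, a fold of 7.84 and a score of 95. The intervals of these 2 sites overlap. Neither holds a DR4, even with 3 mismatches allowed. The score is 10 times the −log10 q of the peak caller, and the first of them ranked 817 of 5107 by fold, the second 3324.

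The strongest TRBS of all 10 genes lay farther upstream of Lpl. At 51318 bp (chr8:68828765-68829505) there were 58 fragments (44.0 to 75.0) over a background of 0.609, with a fold of 36.7, a score of 883 and a rank of 190. Its interval does not overlap that of the site 13934 bp upstream. The DR4 shown above lies at its summit, 0 bp away. A second site 1067 bp farther, at 52385 bp, had 36 fragments (25.2 to 49.8) and a fold of 19.3. Both lie in the 3′ UTR of Ints10, which encodes a subunit of the Integrator complex, and the TSS of Ints10 is nearer to them than that of Lpl, at 35244 and 34177 bp.

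Among the other 3 sites around Lpl the level was lower and all were intergenic. The site 31850 bp upstream had 16 fragments (9.15 to 26.0) and a fold of 11.3, and its DR4 was 44 bp from the summit. Downstream, the site at 37991 bp had 21 fragments and a fold of 13.9, and it lies 27738 bp from another annotated start of Lpl. The site at 73783 bp had 23 fragments (14.6 to 34.5) and a fold of 12.5. Their DR4 elements, with 1 mismatch each, lay 32 and 17 bp from the summits. Lpl was the nearest protein-coding TSS for 5 of its 7 sites, and 5 of the 7 held a DR4.

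Lmf1 (chr17:25579085-25662826, plus strand), the maturation factor, had the site nearest to any of these TSS. It lay in an intron 811 bp downstream (chr17:25579734-25580125) and had 20 fragments (12.2 to 30.9), a background of 0.672, a fold of 12.6 and a score of 197. Its DR4 (chr17:25579908-25579923) lies 19 bp from the summit and differs from the consensus by C5T and A6C, counted from 1 at the 5′ end of the element, with the consensus base first. This was the only DR4 among the 10 sites within 30 kb. No other TRBS was found within 100 kb of this gene.

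Angptl4 (chr17:33773750-33781830, minus strand), the inhibitor, had 3 sites within 30 kb. The site 2040 bp downstream (chr17:33779516-33779942) lies in an intron of the gene, 647 bp from another of its transcript starts, and had 23 fragments (14.6 to 34.5), a background of 1.09, a fold of 11.5 and a score of 195. The sites 25237 bp (chr17:33756465-33756746) and 26085 bp (chr17:33755589-33756084) downstream lie beyond the gene, in introns of Rab11b, which encodes a small GTPase of vesicle traffic. They had 18 fragments (10.7 to 28.4) and 10 fragments (4.80 to 18.4), with folds of 9.08 and 7.04, backgrounds of 1.09 and 0.563, and scores of 131 and 71. Rab11b was the nearest protein-coding TSS, at 3937 and 4785 bp. The site 43015 bp upstream, 273 bp from the TSS of Ndufa7 and in the promoter of Rps28, had 9 fragments and a fold of 6.26. None of these 4 sites holds a DR4 with at most 2 mismatches.

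Gpihbp1 (chr15:75596628-75599481, plus strand), which carries the lipase to capillaries and is known from endothelial cells, had no TRBS within 100 kb. Its nearest one was 161495 bp downstream, next to Mafa, with 28 fragments and a fold of 20.3. Cd36 (chr5:17781690-17888801, minus strand), the fatty acid transporter, had none within 100 kb either. The nearest was 428977 bp upstream, next to Gnai1, with 10 fragments and a fold of 5.75. The weakest summits in the whole list had 5 fragments, so weaker occupancy at these genes was not detectable at this depth.

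Vldlr (chr19:27216484-27254231, plus strand), the lipoprotein receptor, had 1 weak site within 30 kb and 5 farther away. The near one lies in an intron 6908 bp downstream (chr19:27223297-27223579), with 8 fragments (3.45 to 15.8), a background of 0.430, a fold of 6.29 and a score of 56. It is the only one of the 10 near sites with a score under 60, the threshold used in the methods of the study, which 897 of all TRBS do not reach. Upstream, 3 sites at 40654, 48324 and 92122 bp had 17, 19 and 18 fragments and folds of 12.2, 9.96 and 12.0, and each holds a DR4. The elements lay 5, 188 and 13 bp from the summits, respectively. A further site 37877 bp upstream had 7 fragments (2.81 to 14.4) and a fold of 5.20, the lowest of the 25. The strongest was 96308 bp downstream (chr19:27312539-27312991), with 37 fragments (26.1 to 51.0) and a fold of 18.9, and Kcnv2, a potassium channel subunit gene, was nearer to it, at 9796 bp.

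Slc27a1 (chr8:71568882-71587302, plus strand), which encodes FATP1, had no site within 30 kb. A single strong TRBS lay 80966 bp upstream (chr8:71487758-71488261), with 44 fragments (32.0 to 59.1), a background of 0.609, a fold of 28.0 and a score of 614, which ranked 374 in the list. It sits in the promoter of Gtpbp3, 187 bp from its TSS, and 12 other protein-coding TSS lie within 100 kb of Slc27a1.

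Among the binding proteins, Fabp3 (chr4:130308595-130315463, plus strand) had the site with the most fragments within 30 kb of any of the 10 genes. It lies in an intron 4195 bp downstream (chr4:130312595-130312987), with 31 fragments (21.1 to 44.0), a background of 0.913, a fold of 16.7, a score of 329 and a rank of 1101. It holds 3 exact half-sites and no DR4 with at most 2 mismatches, and the TSS of the predicted gene Gm10570 is at 4116 bp, slightly nearer. The second site is intergenic, 9121 bp upstream (chr4:130299274-130299679), with 17 fragments (9.90 to 27.2), a background of 1.52, a fold of 7.14 and a score of 96. The Poisson intervals of the pair overlap.

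Fabp4 (chr3:10204088-10208576, minus strand), the abundant adipocyte protein, had 1 intergenic site within 30 kb. It lies 5274 bp upstream (chr3:10213746-10214072), with 18 fragments (10.7 to 28.4), the highest background of the 25 sites at 2.13, a fold of 6.07 and a score of 82, at rank 4288. The background there corresponds to at most 7 input fragments at the summit. With the same number of fragments, the site 25237 bp downstream of Angptl4 had a fold of 9.08, over a background of 1.09. The other 3 sites, 74503 to 85949 bp upstream, lie in introns of Fabp12, which encodes a related binding protein. The strongest of them (chr3:10282834-10283310) had 49 fragments (36.3 to 64.8) and a fold of 19.8, and the others had 19 and 23 fragments. The TSS of Fabp12 was nearer to all 3 than that of Fabp4, from 6658 to 18104 bp.

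Fabp5 (chr3:10012548-10016607, plus strand), which lies in the same cluster of binding protein genes, had no TRBS within 100 kb. Its nearest site, 201302 bp downstream, is the one 5274 bp upstream of Fabp4.

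**Figure D3:**
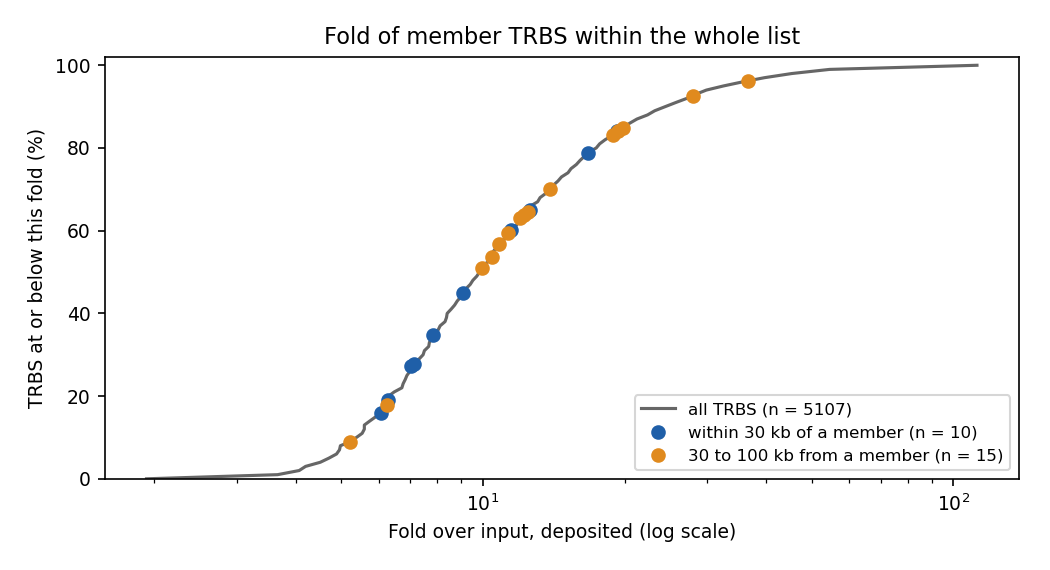
Deposited fold over input (x axis, log scale) against the share of all 5107 TRBS at or below that fold, in percent (y axis). Blue points are the 10 sites within 30 kb of a gene and orange points the 15 sites between 30 and 100 kb; both sets spread over the curve, and the 2 highest points, at folds of 28.0 and 36.7, are the sites 80966 bp upstream of Slc27a1 and 51318 bp upstream of Lpl.

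By position, 6 of the 10 near sites lay in introns and 4 were intergenic, and 6 lay downstream and 4 upstream of the TSS. None lay in a promoter, taken as the stretch from 1000 bp before a TSS to 100 bp after it. The gene itself was the nearest protein-coding TSS for 7 of these 10 sites. Of the 15 sites farther away, 8 were intergenic, 3 intronic, 2 in a 3′ UTR and 2 in promoters, with the introns, UTR and promoters belonging to other genes, and 12 lay upstream. Another gene was nearest for 8 of these 15. The median GC content was 53.0% for the near sites and 46.3% for the far ones, against 51.1% for all TRBS.

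DR4 elements were searched as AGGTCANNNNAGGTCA on both strands of each TRBS, with at most 2 mismatches over the 12 half-site bases. One was found in 1 of 10 sites within 30 kb and in 8 of 15 sites between 30 and 100 kb. Over all TRBS the share was 32.0%, and it was 5.44% in windows as wide as the TRBS and placed 2 kb away on either side. For the 25 sites together it was 36.0% (95% Wilson interval 20.2 to 55.5), so the share over both distances was close to that of the whole list while the near and far sites lay on either side of it. The intervals of the near share (1.79 to 40.4%) and the far share (30.1 to 75.2%) overlap. With 3 mismatches allowed the counts were 6 of 10 and 10 of 15, against 72.5% of all TRBS.

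The exact half-site AGGTCA was present in 3 of the 10 near and 9 of the 15 far sites, against 56.0% of all TRBS and 27.6% of flanking windows. DR1 elements, the direct repeat with a spacer of 1 bp that PPAR and RXR bind (AGGTCANAGGTCA, at most 2 mismatches; it shares its half-sites with DR4), were found in 0 of 10 and 3 of 15 sites, against 14.9% of TRBS and 7.93% of flanking windows. The 3 were the sites 51318 bp upstream of Lpl, 40654 bp upstream of Vldlr and 74503 bp upstream of Fabp4. The C/EBP palindrome TTGCGCAA with at most 1 mismatch was found in 3 of 25 sites, among them Lmf1, against 12.0% of TRBS and 5.63% of flanks. The EBF palindrome TCCCNNGGGA was found in 0 of 25, against 4.54% and 1.29%. The NF1 palindrome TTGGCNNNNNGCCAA, added after the sequences had been read, was found with at most 2 mismatches in 6 of 25 sites, against 27.3% and 15.0%. A match of letters is not a measured contact of a factor.

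The search was also run the other way, over every DR4 element within 30 kb of the 10 TSS. With at most 2 mismatches there were 83 elements, from 3 around Cd36 to 12 around Fabp4, and 1 of the 83, that of Lmf1, lay inside a TRBS. Over the genome 0.711% of such elements did. With at most 1 mismatch there were 8 elements, and none lay inside a TRBS, against 1.91% over the genome. The 8 are given in full because they come closer to the consensus than the element of Lmf1, and capitals mark the half-sites, read along the strand of the element.
Lpl, 706 bp downstream of the TSS, in an exon of a non-coding transcript of the gene, chr8:68881190-68881205, minus strand: AGGTCAccacCGGTCA
Slc27a1, 1699 bp upstream, in the promoter of Nxnl1, chr8:71567175-71567190, minus strand: AGGTCAgcccAGGTTA
Gpihbp1, 3913 bp downstream, intergenic, chr15:75600534-75600549, minus strand: AGGTAAggtgAGGTCA
Fabp4, 22596 bp upstream, intergenic, chr3:10231165-10231180, plus strand: GGGTCAtgaaAGGTCA
Fabp4, 27728 bp upstream, intergenic, chr3:10236297-10236312, plus strand: AGGCCAagaaAGGTCA
Fabp5, 25174 bp upstream, intergenic, chr3:9987366-9987381, minus strand: AGGTCAcaagAGGCCA
Lmf1, 26363 bp upstream, intergenic, chr17:25552714-25552729, plus strand: AGGTCActtgTGGTCA
Angptl4, 28123 bp downstream, in an intron of Rab11b, chr17:33753699-33753714, plus strand: AGGTCAcctcAGGGCA
All 10 genes thus had DR4 elements within 30 kb, including the 4 genes with no TRBS at that distance. Such elements are common, with 290078 over the genome at up to 2 mismatches. The share of all genes with one within 30 kb is not given here, so their presence cannot be read as a trait of these genes.

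**Figure D4:**
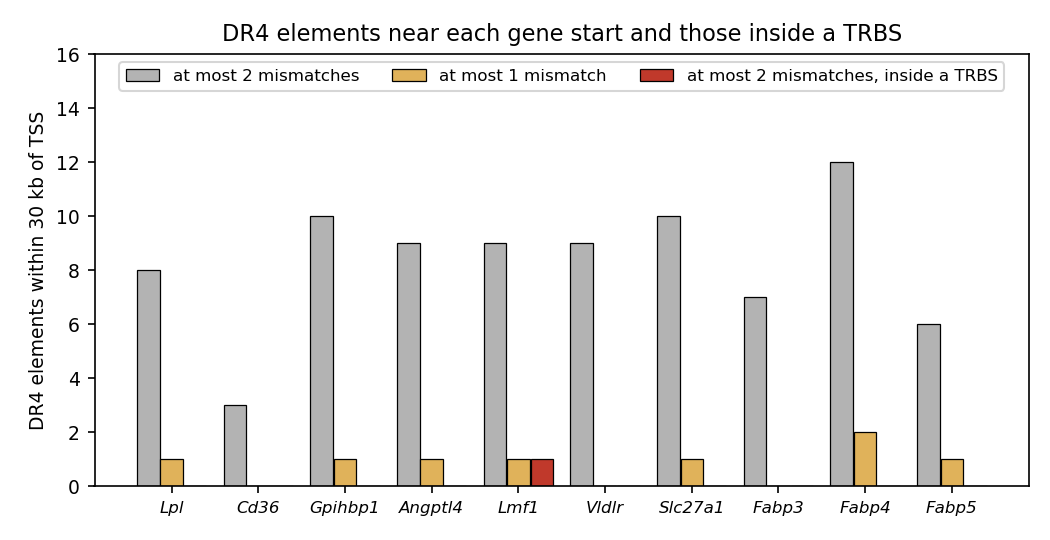
Number of DR4 elements within 30 kb of each TSS (y axis) by gene, with at most 2 mismatches (grey), at most 1 mismatch (yellow), and with at most 2 mismatches inside a TRBS (red). Every gene has grey bars, from 3 at Cd36 to 12 at Fabp4, and the only red bar is the 1 element at Lmf1.

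The wider pathway was described with 33 other genes of lipoprotein breakdown, lipoprotein receptors, fatty acid uptake and activation, and fatty acid binding. A TRBS lay within 30 kb of 13 of them (39.4%, against 16.7% of protein-coding genes) and within 100 kb of 19 (57.6%, against 38.3%). With a limit of 10 kb the 13 became 8, against 8.09% of protein-coding genes. More than 1 within 30 kb was counted at 6 of the 33, against 4.55%, and some of these genes are neighbours that share sites. Within 30 kb, the site with the highest fold was that of Lipg, the endothelial lipase gene, 2965 bp downstream, with 53 fragments and a fold of 32.5. Apoe, which encodes a ligand of lipoprotein receptors, had a site 1942 bp upstream with 63 fragments and a fold of 17.1, and this site also counts for Apoc2, whose product activates the lipase, at 23189 bp.

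Receptor and activation genes of the list carried sites as well. Scarb1, a lipoprotein receptor gene, had 1 site within 30 kb, 9624 bp downstream with 38 fragments and a fold of 17.6, and 10 sites within 100 kb, the strongest of them 73918 bp from the TSS with 56 fragments and a fold of 39.7. Lrp1, a large receptor of the same family as VLDLR, had 4 within 30 kb, the strongest by fold 8830 bp downstream with 19 fragments and a fold of 14.0. The acyl-CoA synthetase gene Acsl1 had 3, the strongest by fold 9012 bp downstream with 22 fragments and a fold of 16.1, and Acsl5 had 1, 1704 bp upstream with 17 fragments and a fold of 9.41. Cav1, the caveolin gene, had 3 sites, the strongest by fold 15666 bp downstream with 10 fragments and a fold of 5.75. Its nearest site, 1330 bp downstream, had 6 fragments and a fold of 4.25. Only 1 of the 3 had a score of at least 60, so at that threshold Cav1 leaves the genes with more than 1 site. Fabp9 and Pmp2 were counted for the site upstream of Fabp4, and Fabp12 for the sites in its introns, so these 3 genes add no further TRBS. Genes of the list with no TRBS within 100 kb included Angptl8, Apoc3, Apoa5, Lipc, Slc27a3, Slc27a5, Slc27a6, Got2, Acsl6, Fabp1, Fabp6 and Fabp7.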

How the data were processed

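ChIP-seq of GS-tagged TRα1 in brown adipocytes gave 1 ChIP library and 1 input library. The authors aligned reads to GRCm38 (mm10) and called peaks against the input; the submitters' processing notes name Bowtie2 2.3.2.2 and MACS2 2.1.1.20160309.6. The deposited list holds 5107 peaks with a score, a fold (ratio of ChIP pileup to input background, each plus 1), and a −log10 p-value and −log10 q-value per peak. All peaks were kept, and starts were read as counted from 0 and are printed from 1. No column was left unmapped. Read totals were not used here.

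Whole fragments were solved from fold and −log10 p (tolerance 0.0005) for 5085 peaks (99.6%), and for all 25 sites described the solution was unique. Each input fragment then counted as 0.304 ChIP fragments. The solver and the motif search were tested on simulated data. Genes came from GENCODE vM21, with 1 TSS per protein-coding gene, and sequence from GRCm38.p6 (RefSeq). All 10 genes were named, with every site within 30 kb and the strongest beyond, and further genes where their TSS was nearer to a site or they stood in the list of 33. Some genes of that list are not reported here by name. Genes and lists were chosen with earlier results of these data known. Poisson and Wilson intervals (95%) cover counting error only, since reads without molecular identifiers need not be independent. Scripts used Python 3.11.15, pandas 2.3.3, scipy 1.17.1 and pyfaidx 0.9.0.4.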

Additional observations from a re-analysis of the deposited data

How the results depend on the processing

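Of 69 values recomputed under other settings, 44 stayed close to the reported one, 25 moved and 0 changed sign. Counts, shares and medians cannot be negative, so no change of sign was possible. Of the 69, 12 were chosen after seeing the data. A count was called close up to a ratio of 1.5, and a share or median inside its 95% interval for counting error. Sizeable shifts could thus count as close. Raising the score threshold to 100 left near sites at 4 genes instead of 6, against 11.3% of protein-coding genes. It also took the median fold from 8.46 to 12.6. The 10 TRBS within 30 kb became 5 with a score of at least 100, 6 with a limit of 10 kb and 16 with a limit of 50 kb. Those with a DR4 went from 1 to 5 with a limit of 50 kb, to 0 with at most 1 mismatch and to 6 with at most 3 mismatches. Their median fold went from 8.46 to 18.2 without the pseudocount, which lowers folds over a background near 1. With a score of at least 60 the site of Vldlr was lost, leaving 5 of the 10 genes, against 14.1% of protein-coding genes. With 5 to 58 fragments between the weakest summit of the list and the strongest of these sites, and 1 library, differences of a few fragments were not detectable. No paired analysis was possible because there was 1 ChIP library and 1 input library.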
